A study of Mus musculus with 12 samples.

Results

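The genes described here encode cell-surface receptors for nucleotides, adenosine, bioactive lipids and catecholamines, together with receptors numbered in the Gpr series, many of which have no settled ligand. Membership was set by symbol alone, with earlier results of these data known. It took every gene named Gpr, P2ry, P2rx, Ptger, S1pr, Lpar, Adora or Adrb with a plain number or letter. That gave 110 of the 24421 genes deposited. The name does not make each of them a G protein-coupled receptor. The 7 P2rx genes encode ion channels opened by ATP, and 8 Gpr genes were set aside as multi-pass proteins of internal membranes, such as Gpr89, Gpr107 and Gpr137. The cells were CD8+ T cells, the cytotoxic lymphocytes, from splenocytes of C57BL/6 mice, a common inbred strain. The 6 control libraries came from cells given DMSO, the solvent, and the other 6, written EZH2i, from cells in which EZH2 was inhibited. EZH2 methylates histone H3 at silent genes as the catalytic subunit of PRC2. The sources used here do not name the compound, its dose, the time of exposure or the animals behind each library, so p-values measure the spread between libraries, which may be technical.

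G protein-coupled receptors cross the membrane with a bundle of helices and pass a ligand's binding on to a heterotrimeric G protein. Receptors coupled to Gs raise cyclic AMP, which restrains T cell activation; those coupled to Gi lower it, and those coupled to G12 and G13 act on the cytoskeleton. In T cells these receptors are best known for steering migration, as sphingosine-1-phosphate (S1P) draws cells out of lymphoid organs through S1pr1, and for reading tissue signals such as acid, adenosine, prostaglandin E2 and noradrenaline.

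Library totals ran from 17215483 to 31206228 counts. Levels are in CPM, each gene's counts scaled to a common library total after TMM normalization. A gene is called when edgeR's quasi-likelihood test gives a Benjamini-Hochberg adjusted p under 0.05 over 11727 genes. The library numbered 6 stood apart in each group: its root-mean-square log2 distance from the rest of its group was 0.584 in DMSO and 0.699 in EZH2i, against at most 0.306 for any other library. Libraries of equal number correlated across the groups at 0.26 to 0.88, but number 6 shifts both group means and so bears on every value. With number 6 left out, number 5 gave 0.00068 and numbers 1 to 4 gave 0.20 to 0.40. Whether equal numbers mark paired libraries is therefore uncertain, and so are results that rest on it. A fit with the number as a block is given where it changes a call of a receptor gene. The CD8 T cell marker list summed to 4898 to 6094 CPM in DMSO and 3904 to 5068 in EZH2i, and 2 of its 7 genes, Cd8a and Cd3g, fell. Several markers of other cells rose: Itgam from 4.75 to 11.6 CPM, Itgax from 0.513 to 2.01, Pdgfrb from 0.392 to 3.09 and Zbtb7b from 14.6 to 22.2. Other genes of those lists went either way or hardly moved. In DMSO and EZH2i, Cd68 stood at 4.21 and 3.49 CPM and was not called. Cdh5 (0.469 and 0.134 CPM), Kdr (0.0185 and 0.856), Xcr1 (0.135 and 0.0589) and Cd4 (0.0887 and 0.0983) were too low to test. B cell markers summed to 19.2 to 25.3 CPM in DMSO and 14.8 to 21.9 in EZH2i, nearly all of it Cd79b, while Ms4a1 stood at 0.0185 and 0.0752 CPM. Macrophage markers summed to 4.58 to 11.0 and 7.27 to 19.3 CPM with Csf1r at 0.00876 and 0.0144, and of 6 erythroid markers 5 had no count.

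Promoters of the called genes differed widely in CpG, the dinucleotide in which Polycomb-bound promoters are usually rich. RefSeq start-site windows in build GRCm38.p6, 250 bases before to 50 bases after the start, were at hand for 79 of the 110 genes and for 6 of the 12 called ones. Shown 5′ to 3′ on the gene's strand, with every CG in capitals, are 2 genes that rose and have many CpG, 1 that rose with few, and 1 that fell: Ptger3 (chr3:157566626-157566925, plus strand), P2rx4 (chr5:122707294-122707593, plus strand), Gpr141 (chr13:19824208-19824507, minus strand) and Gpr183 (chr14:121965144-121965443, minus strand).
Ptger3: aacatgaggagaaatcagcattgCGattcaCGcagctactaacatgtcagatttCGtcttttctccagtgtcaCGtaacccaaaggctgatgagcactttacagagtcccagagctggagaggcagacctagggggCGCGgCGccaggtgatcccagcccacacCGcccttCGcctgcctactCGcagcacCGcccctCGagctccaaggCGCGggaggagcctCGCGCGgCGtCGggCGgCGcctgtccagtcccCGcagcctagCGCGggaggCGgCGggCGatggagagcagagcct
P2rx4: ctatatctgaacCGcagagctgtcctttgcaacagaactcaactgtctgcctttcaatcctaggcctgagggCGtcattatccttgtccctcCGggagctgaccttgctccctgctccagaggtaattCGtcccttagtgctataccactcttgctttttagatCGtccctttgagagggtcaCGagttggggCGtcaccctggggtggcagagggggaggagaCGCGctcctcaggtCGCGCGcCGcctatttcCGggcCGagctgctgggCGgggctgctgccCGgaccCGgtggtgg
Gpr141: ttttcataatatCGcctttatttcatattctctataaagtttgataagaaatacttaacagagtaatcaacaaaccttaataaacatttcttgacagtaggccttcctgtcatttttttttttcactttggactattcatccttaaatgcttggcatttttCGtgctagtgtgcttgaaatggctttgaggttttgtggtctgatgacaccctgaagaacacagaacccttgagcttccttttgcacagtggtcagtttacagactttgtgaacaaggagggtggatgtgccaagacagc
Gpr183: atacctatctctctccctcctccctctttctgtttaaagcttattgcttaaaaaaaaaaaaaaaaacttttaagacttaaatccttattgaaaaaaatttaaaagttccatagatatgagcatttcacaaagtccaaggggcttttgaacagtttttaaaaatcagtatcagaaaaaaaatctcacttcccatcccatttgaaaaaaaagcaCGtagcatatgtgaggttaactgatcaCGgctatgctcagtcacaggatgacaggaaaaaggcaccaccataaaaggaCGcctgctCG
The windows hold 27, 18, 2 and 4 CG respectively. CG reads the same on each strand. At least 10 were found in 43.47% of the 32851 windows of the whole table. Taking the window with the most CG for each gene, 4 of the 5 called higher receptor genes with a window had at least 10, as had 13 of the 29 tested and not called. Among all genes of the files the figures were 980 of 1156 called higher, 491 of 549 called lower and 6309 of 7291 not called. Gpr183, with 4, was the only receptor gene called lower that had a window. The median number of CG was 7 for the tested receptor genes that were not called and 22 for all such genes. No chromatin mark was analysed here, and a count of CG says nothing about which protein binds there.

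At least 1 count was found for 83 of the 110 genes and none for 27. Per library, 57.7 ± 4.03 were detected in DMSO and 63.8 ± 3.31 in EZH2i (SD, n = 6, two-sided exact permutation p = 0.0238, adjusted 0.0357 over 6 comparisons). At the depth of the smallest library the expected numbers were 55.7 ± 3.11 and 60.8 ± 1.62 (exact permutation p = 0.00866, adjusted 0.0173). Genes at large moved the same way, from 13387 ± 188 to 14152 ± 73.2 at that depth (exact permutation p = 0.00216, the smallest that 6 against 6 libraries can give). The summed level of all 110 genes was 1920 ± 196 CPM in DMSO and 1931 ± 283 CPM in EZH2i, a difference within the spread (exact permutation p = 0.898).

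Genes that rose with EZH2i included the prostaglandin E2 receptor Ptger3, the orphan receptors Gpr141 and Gpr162, the ion channels P2rx3 and P2rx4, the lysosomal protein Gpr137 and the lysophosphatidic acid receptor Lpar2. Those that fell included the lysophosphatidylserine receptor Gpr34, the oxysterol receptor Gpr183 and the orphan-type receptor Gpr171. Of 43 tested genes, 8 (18.6%) were higher, beside 13.3% of all tested genes, and 4 (9.3%) were lower, beside 6.05%. With the replicate block 18 were higher and 9 lower, beside 24.7% and 24.3% of all tested genes, and these held all 12 calls with unchanged sign. Without both libraries numbered 6, 15 were higher and 7 lower, beside 23.9% and 20.9%. Without EZH2i library 6 alone, 12 were higher and 6 lower, beside 19.2% and 15.4%. With upper-quartile in place of TMM scaling 9 were higher and 2 lower, beside 15.3% and 2.96%. The CPM ranges of the groups did not overlap for 4 of the 43, among them Gpr34, Gpr141 and Lpar2, beside 10.2% of all tested genes. The median log2 fold change was 0.18 for the tested receptor genes and -0.01 for all tested genes. Without the filter these medians were 0.29 and 0.04. Of the 43, 6 reached the filter cutoff of 0.409 CPM in fewer than 6 DMSO libraries and passed it by way of their EZH2i libraries. Among these 6 were Ptger3, Gpr141, P2rx3 and Gpr162, all called higher. The count called higher therefore includes genes that the filter admitted through the EZH2i group.

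In build GRCm38, with gene spans from GENCODE M21, genes called higher lie as follows: Ptger3 at chr3:157566892-157645888, P2rx4 at chr5:122707544-122729738, Gpr141 at chr13:19749682-19824257 and P2rx3 at chr2:84998583-85037462. Also called higher were Gpr162 at chr6:124858444-124863983, Gpr137 at chr19:6938057-6942480 and Lpar2 at chr8:69822429-69831102. Genes called lower include Gpr34 at chrX:13632089-13640858, Gpr183 at chr14:121952551-121965195 and Gpr171 at chr3:59096448-59101821. All of these are annotated as protein-coding genes.

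**Figure D1:**
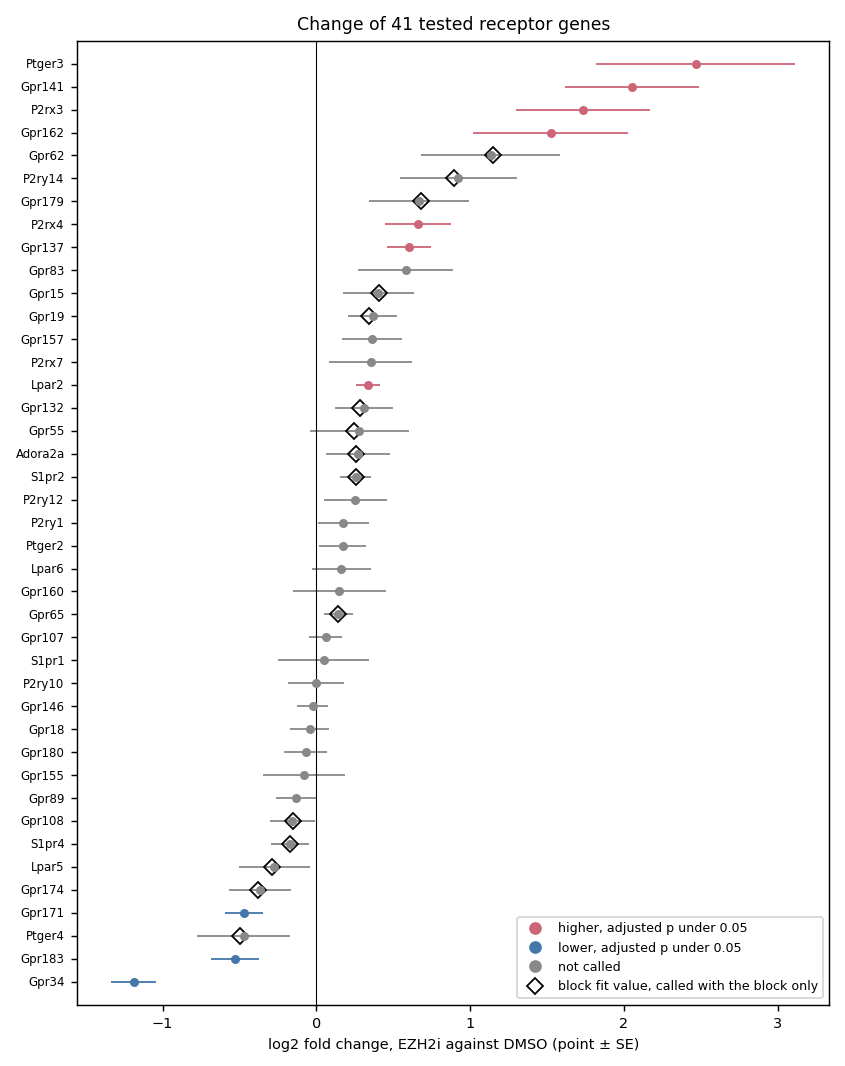
Log2 fold change (x axis, EZH2i against DMSO, point ± SE) of 41 tested receptor genes, ordered by size. Colours mark the 7 drawn genes called higher and the 3 called lower, grey points were not called, and diamonds give the block-fit value of genes called only with the block. Ptger3 lies farthest to the right at 2.47 and Gpr34 farthest to the left at -1.19.

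Lysophosphatidylserine, a lipid shed by dying and activated cells, is read by Gpr34, Gpr174 and P2ry10. Gpr34 showed the strongest fall of the tested receptor genes. Its lowest, median and highest levels were 13.1, 14.5 and 19.4 CPM in DMSO and 5.71, 6.20 and 9.57 CPM in EZH2i. Every EZH2i library lay below every DMSO library, and number 6 was the highest in each group. The log2 fold change was -1.19 (SE 0.144, adjusted p = 8.82e-05). Gpr174, which restrains lymphocyte activation, ran at 27.1, 41.8 and 57.7 CPM in DMSO and 16.9, 35.2 and 39.8 CPM in EZH2i. The ranges overlapped, yet EZH2i was lower in 6 of 6 same-numbered libraries. Its log2 fold change of -0.37 was not called (adjusted p = 0.227), whereas the block (adjusted p = 0.000412) and the fit without number 6 (-0.33, adjusted p = 0.00786) called it lower. P2ry10 was among the most abundant receptors and was not called. It ran at 193, 279 and 328 CPM in DMSO and 140, 291 and 327 CPM in EZH2i, with number 6 lowest in each group (log2 fold change -0.0034, SE 0.183, adjusted p = 0.992). Next to Gpr34 on chromosome X lies Gpr82, which had 14 counts in DMSO and 15 in EZH2i and was too low to test. Gpr34 is also found in B cells and macrophages, whose marker sums are given above; their part in its fall was not tested. In bulk RNA, fewer cells of a type and less RNA per cell cannot be told apart.

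Gpr183, also called EBI2, guides lymphocytes along oxysterol gradients made with the enzymes Ch25h and Cyp7b1. It ran at 14.9, 23.7 and 27.8 CPM in DMSO and 11.1, 16.6 and 19.3 CPM in EZH2i. Only DMSO library 6 lay inside the EZH2i range, and EZH2i was lower in 6 of 6 same-numbered libraries. The fall (log2 fold change -0.53, SE 0.155, adjusted p = 0.0292) missed the threshold with upper-quartile scaling and without any 1 of DMSO libraries 1, 2 and 5 and EZH2i libraries 1 and 2, with adjusted p up to 0.0652. Its neighbour on chromosome 14, Gpr18, a receptor proposed for N-arachidonoyl glycine, was more abundant and not called. It ran at 84.9, 121 and 131 CPM in DMSO and 80.6, 113 and 129 CPM in EZH2i (log2 fold change -0.04, adjusted p = 0.849; 0.01 without number 6). Gpr55, a receptor for lysophosphatidylinositol, reached 64.0 CPM in number 6 of the DMSO group and 83.8 CPM in its EZH2i counterpart, far above the other 5 libraries of each group. Its log2 fold change of 0.28 (adjusted p = 0.602) became -0.09 without EZH2i library 6 alone. Without both libraries numbered 6 it was 0.22 and was called (adjusted p = 0.0120), as it was with the block (adjusted p = 0.00332). Of the other receptors of this kind, Gpr35 had 1 count in DMSO and 8 in EZH2i, and Gpr84, Gpr119 and Gpr31b had none.

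A cluster of receptor genes on chromosome 3 held a gene that fell, and another that was higher in EZH2i but called only in some of the fits. Gpr171, P2ry14, P2ry13 and P2ry12 lie close together on the minus strand, within the span of Med12l, a Mediator subunit gene on the plus strand from 59005825 to 59318682. Gpr171, a receptor proposed for a neuropeptide and expressed by T cells, ran at 44.1, 60.3 and 75.7 CPM in DMSO and 34.8, 44.3 and 51.2 CPM in EZH2i. DMSO library 6 was the only DMSO library inside the EZH2i range, and EZH2i was lower in 6 of 6 same-numbered libraries (log2 fold change -0.47, SE 0.124, adjusted p = 0.0166). P2ry14, a receptor of UDP-glucose, ran at 18.6, 28.0 and 70.1 CPM in DMSO and 42.96, 45.0 and 145 CPM in EZH2i. It was higher in 6 of 6 same-numbered libraries, and number 6 was the highest in each group. With that spread the log2 fold change of 0.92 (SE 0.379) was not called (adjusted p = 0.109), while the block (0.90, adjusted p = 8.37e-08) and the fit without number 6 (0.85, adjusted p = 4.16e-05) called it higher. P2ry12, the ADP receptor of platelets, stood at 0.710 ± 0.143 and 0.840 ± 0.185 CPM (adjusted p = 0.440). P2ry13, another ADP receptor, had 10 and 45 counts, 23 of the latter in a single library. Med12l itself rose by 0.75 on the log2 scale, with means of 6.83 ± 1.36 and 11.5 ± 2.23 CPM (adjusted p = 0.00760), and shares 9 exon bases with P2ry12 on the opposite strand.

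Proton-sensing receptors answer to extracellular acid. The abundant Gpr65 and Gpr132 were not called. Gpr65, coupled to Gs, ran at 52.2, 54.3 and 68.8 CPM in DMSO and 53.4, 61.0 and 73.8 CPM in EZH2i (log2 fold change 0.14, adjusted p = 0.319), and the block called it higher (adjusted p = 0.0489). Gpr132, a receptor linked to lysophospholipids as well, ran at 81.7, 132 and 153 CPM in DMSO and 79.1, 176 and 182 CPM in EZH2i. Apart from number 6, which was lowest in each group and showed no rise, every EZH2i library lay above every DMSO library. The log2 fold change was 0.31 (adjusted p = 0.290), with the block 0.29 (adjusted p = 0.00120) and without number 6 0.35 (adjusted p = 0.000136). Gpr4, another proton sensor, had 1 count in all.

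Of the adenosine receptors, Adora2a and Adora2b raise cyclic AMP, as do the beta adrenergic receptors of noradrenaline. The adrenergic receptor gene Adrb1, with 13 counts in DMSO and 42 in EZH2i, was too low to test. Its ratio of summed counts, relative to the TMM-scaled library totals, was 2.70 (95% counting interval 1.42 to 5.48). Adrb3 had 2 counts in all. Adora2a, the adenosine receptor that dampens T cells in tumours, ran at 19.9, 33.8 and 39.4 CPM in DMSO and 19.1, 42.9 and 47.3 CPM in EZH2i. Number 6 was lowest in each group and hardly differed, and in the other 5 numbers EZH2i was higher. The log2 fold change was 0.27 (adjusted p = 0.406), with the block 0.25 (adjusted p = 0.00795) and without number 6 0.31 (adjusted p = 0.00167). Adora2b, which needs more adenosine to signal, had 6 counts in DMSO and 64 in EZH2i. Relative to the TMM-scaled library totals that was 8.91 times as many, with a 95% counting interval from 3.88 to 25.2. Of those 64 counts 40 were in EZH2i library 6. It was the only untested receptor gene called when the filter was left out (adjusted p = 0.0415). Adora3 had 13 and 21 counts, and Adora1 none.

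Prostaglandin E2 acts through 4 receptors, of which Ptger2 and Ptger4 couple to Gs and Ptger3 to Gi. Ptger3 rose from close to nothing, with 52 counts in DMSO and 391 in EZH2i. It ran at 0.0739, 0.296 and 1.55 CPM in DMSO and 1.01, 1.68 and 6.10 CPM in EZH2i. Number 6 was the highest in each group, and its DMSO level was the only one inside the EZH2i range. The log2 fold change was 2.47 (SE 0.647, adjusted p = 0.0169) and ranged from 1.89 to 3.35 over the alternatives, with adjusted p up to 0.0428. Ptger3 is also known from mast cells, whose marker list summed to 4.82 to 6.91 CPM in DMSO and 27.2 to 54.1 CPM in EZH2i, most of it Kit (3.84 and 31.4 CPM). Kit and Cpa3 rose, Ms4a2 (0.562 and 0.527 CPM) was not called, and Fcer1a (0.215 and 0.184 CPM) and Mcpt8 (0.0890 and 0.158 CPM) were too low to test. The part of such cells in the Ptger3 rise was not tested. Ptger4 leaned the other way, from 19.5, 26.8 and 57.8 CPM in DMSO to 16.6, 18.1 and 46.5 CPM in EZH2i. Library 6 again stood highest in each group, and EZH2i was lower in 6 of 6 same-numbered libraries. Its log2 fold change of -0.47 (SE 0.304) was not called (adjusted p = 0.314), and was called with the block (-0.50, adjusted p = 0.000284) and without number 6 (-0.55, adjusted p = 0.000677). Ptger2 was not called (0.17 on the log2 scale, adjusted p = 0.490), with means of 4.37 ± 0.873 and 4.91 ± 0.730 CPM.

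**Figure D2:**
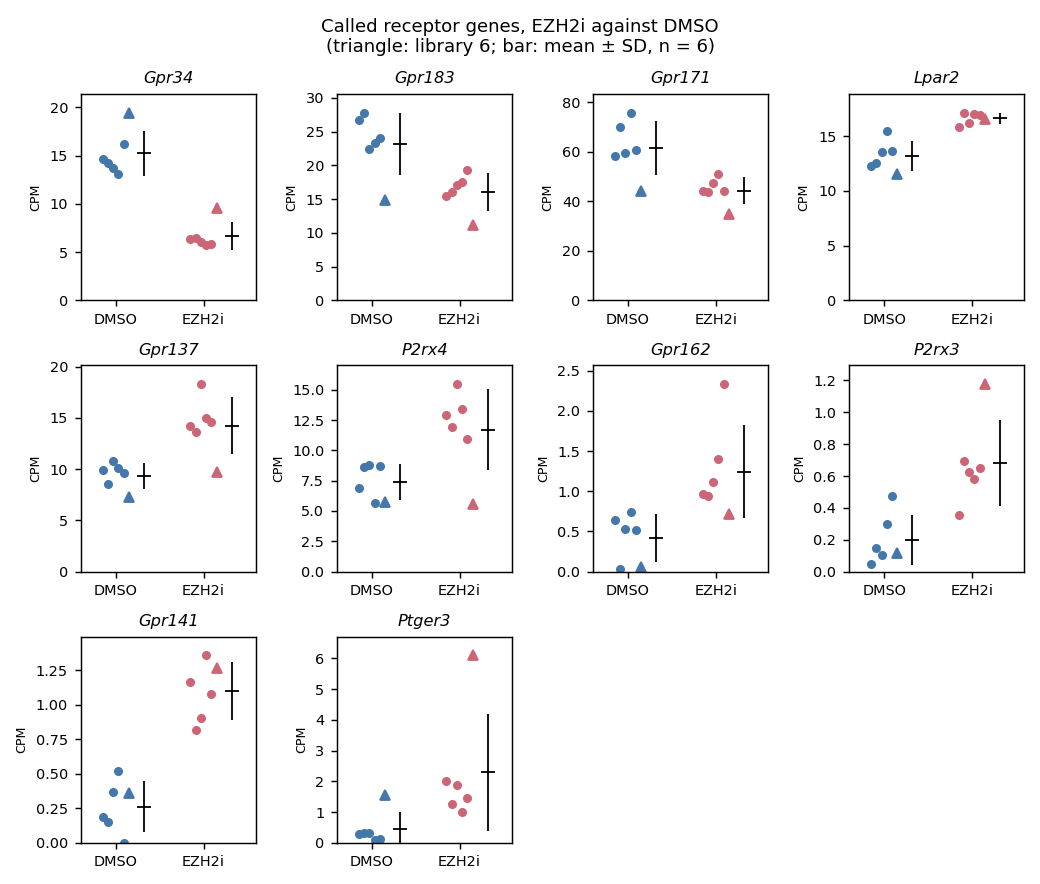
CPM (y axis, linear from 0) in each of the 12 libraries for 10 called receptor genes, ordered from the strongest fall to the strongest rise. Circles are libraries 1 to 5, triangles library 6, and black bars the mean ± SD of 6 libraries. Gpr34, Lpar2 and Gpr141 show no overlap between groups, and the library 6 triangle of P2rx4 in EZH2i lies at 5.57 CPM, below every DMSO library.

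Among S1P receptors, S1pr1, which carries lymphocytes out of lymphoid organs, was the most abundant of all the receptor genes. It ran at 226, 456 and 542 CPM in DMSO and 129, 512 and 574 CPM in EZH2i, with number 6 far below the rest in each group. The log2 fold change was 0.05 (SE 0.298, adjusted p = 0.936), with the block -0.04 and without number 6 0.11 (adjusted p = 0.194). S1pr4, a receptor of T cells with a less settled role, ran at 121, 154 and 199 CPM in DMSO and 105, 136 and 169 CPM in EZH2i (log2 fold change -0.17, adjusted p = 0.388), and the block called it lower (adjusted p = 0.0234). S1pr2, which couples to G12 and G13 and confines cells within tissue, stood at 6.32 ± 0.565 and 7.55 ± 0.737 CPM. It was higher in 6 of 6 same-numbered libraries and not called (log2 fold change 0.25, adjusted p = 0.0957), though called with the block (adjusted p = 0.0336). S1pr5, the receptor of natural killer and circulating effector cells, had no count in DMSO and 13 in EZH2i, 7 of them in library 5. The NK cell list summed to 0.432 to 1.49 CPM in DMSO and 3.81 to 9.29 CPM in EZH2i. Most of it was Klrb1c, which rose from 0.852 to 5.10 CPM. Ncr1, at 0.0455 CPM in each group, was too low to test, and Klra8 and Klra4 had no count. The part of NK cells in the S1pr5 counts was not tested. In S1pr3 the counts were 0 and 7.

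Lysophosphatidic acid is sensed by the Lpar receptors. Lpar2 rose slightly and evenly, from 11.6, 13.02 and 15.5 CPM in DMSO to 15.8, 16.8 and 17.1 CPM in EZH2i. No EZH2i library fell within the DMSO range (log2 fold change 0.34, SE 0.0803, adjusted p = 0.0101). Lpar6, whose gene lies on chromosome 14 within Rb1 and shares 408 exon bases with it on the opposite strand, ran at 16.1, 21.2 and 28.3 CPM in DMSO and 11.9, 26.1 and 28.8 CPM in EZH2i. It was not called (log2 fold change 0.16, adjusted p = 0.614), and without number 6 it was (0.24, adjusted p = 0.0410). Lpar5, which restrains antigen receptor signalling in CD8 T cells, stood at 12.4 ± 3.94 and 10.2 ± 3.67 CPM, lower in 6 of 6 same-numbered libraries. Its log2 fold change of -0.27 (adjusted p = 0.461) was called with the block (adjusted p = 0.0113) and without number 6 (-0.30, adjusted p = 0.0221). Lpar3 had 3 counts in each group, and Lpar1 and Lpar4 none.

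Extracellular ATP opens the P2X channels. P2rx4, found largely in lysosomes, ran at 5.62, 7.77 and 8.78 CPM in DMSO and 5.57, 12.4 and 15.5 CPM in EZH2i. Its rise was carried by libraries 1 to 5, with EZH2i library 6 no higher than DMSO library 6 (log2 fold change 0.66, SE 0.214, adjusted p = 0.0470). Leaving out any single library except EZH2i library 6 ended the call, with adjusted p up to 0.111, whereas without number 6 the log2 fold change was 0.75 (adjusted p = 0.000136). P2rx7, which lies beside P2rx4 on chromosome 5 and couples high ATP to calcium entry and cell death, ran at 0.847, 1.81 and 2.21 CPM in DMSO and 1.47, 1.901 and 2.69 CPM in EZH2i (log2 fold change 0.35, adjusted p = 0.408). P2rx3, the channel of sensory neurons, had 28 counts in DMSO and 115 in EZH2i. Its levels were 0.0462, 0.133 and 0.475 CPM against 0.354, 0.638 and 1.18 CPM, and only DMSO library 5 reached into the EZH2i range (log2 fold change 1.73, SE 0.436, adjusted p = 0.0134). P2rx3 shares 51 exon bases with the abundant gene Ssrp1 on the opposite strand, which stood at 495 and 485 CPM. Whether reads were counted by strand is not stated in the sources used here, and the part of Ssrp1 reads in the P2rx3 count was not tested. P2rx1 had 22 and 23 counts, and P2rx6 none. Of the remaining nucleotide receptors, P2ry1, an ADP receptor, stood at 4.13 ± 0.981 and 4.65 ± 0.718 CPM (adjusted p = 0.508), and P2ry2, a receptor of ATP and UTP, had 26 and 67 counts, 57 of the latter in 1 library.

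**Figure D3:**
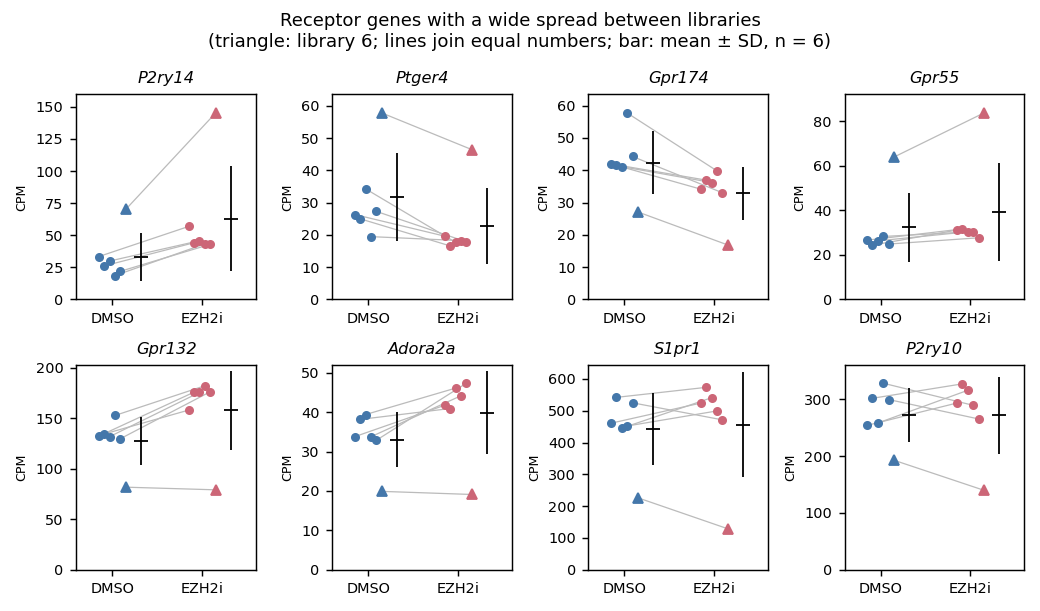
CPM (y axis, linear from 0) by library for 8 receptor genes with a wide spread, picked after their values were seen; grey lines join libraries of equal number, triangles are library 6, and black bars the mean ± SD of 6 libraries. Library 6 lies far above the rest for P2ry14, Ptger4 and Gpr55 and far below for S1pr1, Gpr132 and Adora2a, while the lines of P2ry14 rise and those of Ptger4 and Gpr174 fall for all 6 numbers.

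Genes placed in none of the other groups, many but not all with no settled ligand, made up 51 of the 110. Of these, 32 had a count and 12 were tested. Besides Gpr171, Gpr141 and Gpr162 changed. Gpr141 had 35 counts in DMSO and 176 in EZH2i. It ran at 0, 0.271 and 0.518 CPM in DMSO and 0.819, 1.12 and 1.36 CPM in EZH2i, without overlap (log2 fold change 2.06, SE 0.436, adjusted p = 0.00487). Gpr162 had 58 and 194 counts, and ran at 0.0368, 0.522 and 0.739 CPM in DMSO against 0.712, 1.04 and 2.33 CPM in EZH2i. Its ranges overlapped slightly, and the adjusted p of 0.0496 lay at the threshold (log2 fold change 1.52, SE 0.502). Leaving out any single library except DMSO library 4 or EZH2i library 6 ended the Gpr162 call. Gpr146 at 82.4 ± 10.3 and 81.0 ± 9.89 CPM and Gpr180 at 11.8 ± 1.43 and 11.2 ± 2.59 CPM were not called. Nor was Gpr19, at 8.97 ± 0.586 and 11.6 ± 2.75 CPM (adjusted p = 0.128), which was called higher with the block (0.34, adjusted p = 0.0364) and without number 6 (0.50, adjusted p = 0.000232). Gpr15, the homing receptor of gut T cells, stood at 5.02 ± 1.598 and 6.64 ± 1.76 CPM (adjusted p = 0.252, called higher with the block, adjusted p = 0.0316), and shares 204 exon bases with Cpox on the opposite strand. The other 5 tested, Gpr62, Gpr83, Gpr157, Gpr160 and Gpr179, were not called, with group means from 0.216 to 6.67 CPM, though the block called Gpr179 (0.68, adjusted p = 0.0156) and Gpr62 (1.15, adjusted p = 0.0413) higher.

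Of the 8 proteins of internal membranes, 5 were tested and 1 rose. Gpr137, a lysosomal protein linked to mTORC1, ran at 7.26, 9.74 and 10.8 CPM in DMSO and 9.69, 14.4 and 18.3 CPM in EZH2i. Only EZH2i library 6 fell within the DMSO range (log2 fold change 0.60, SE 0.142, adjusted p = 0.00931). Gpr137 shares 524 exon bases, 15.43% of its exons, with Bad on the opposite strand, whose means were 14.9 and 13.5 CPM (-0.15 on the log2 scale, adjusted p = 0.363). Gpr108 at 65.9 ± 11.9 and 59.2 ± 10.2 CPM, Gpr107 at 36.5 ± 5.35 and 38.0 ± 4.57 CPM, Gpr89, a Golgi anion channel, at 26.5 ± 3.38 and 24.1 ± 5.11 CPM, and Gpr155 at 4.05 ± 1.88 and 3.82 ± 1.04 CPM were not called. With the block Gpr108 was called lower (log2 fold change -0.15, adjusted p = 0.0334).

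The 40 genes with counts below the filter added up to 1.91 ± 0.562 CPM per library in DMSO and 3.19 ± 1.68 CPM in EZH2i (exact permutation p = 0.0346, adjusted 0.0416). Libraries ran from 1.15 to 2.68 CPM in DMSO and from 2.11 to 6.56 CPM in EZH2i. The highest was EZH2i library 6, with P2ry2 at 1.76 and Adora2b at 1.24 CPM. Counts were higher in EZH2i for 31 of them, lower for 6 and equal for 3, without correction for the larger EZH2i libraries. The same shares over all genes below the filter were not computed. None but Adora2b was called when the filter was left out.

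Per kilobase of merged exons, S1pr1 stood highest in DMSO at 145 CPM per kb, followed by P2ry10 at 91.3, Gpr18 at 76.7, S1pr4 at 65.5 and Gpr132 at 46.8 CPM per kb. The library ranges of each pair of neighbours in that order overlapped. The same 5 stood highest in EZH2i, at 150, 91.1, 74.4, 58.2 and 58.1 CPM per kb. Gpr34 lay at 7.29 CPM per kb in DMSO and 3.19 in EZH2i.

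**Figure D4:**
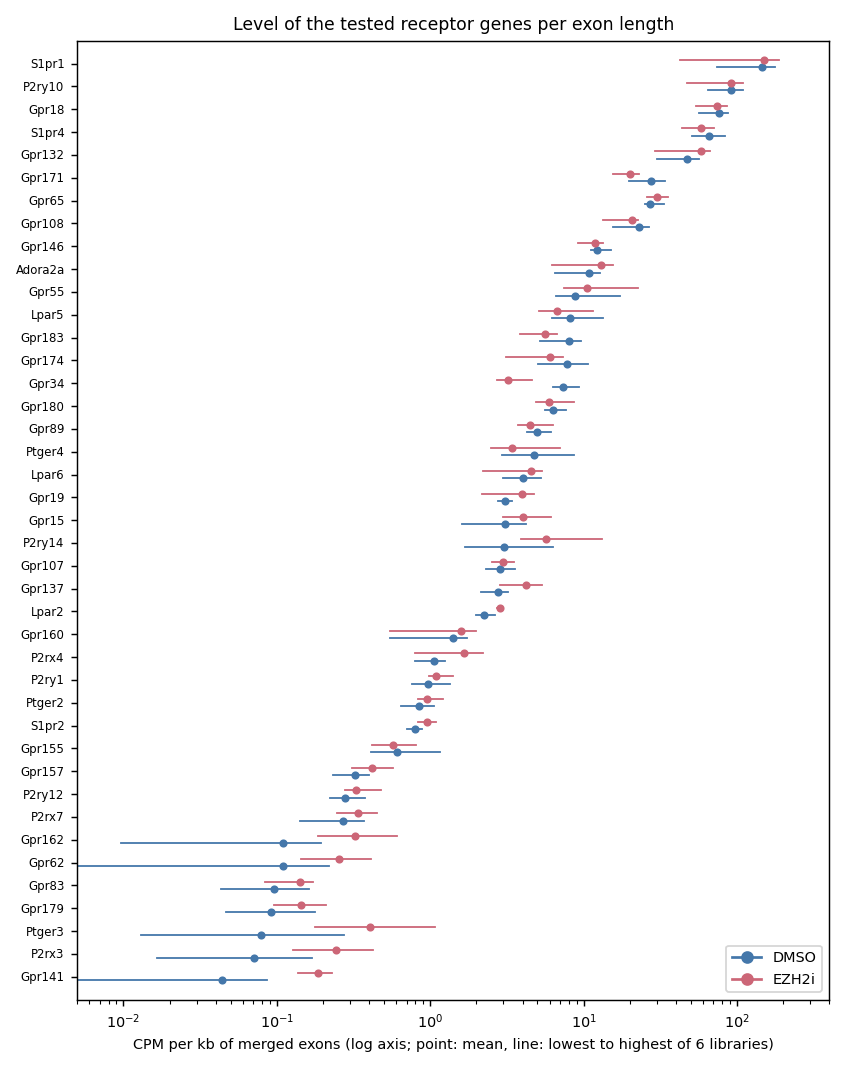
Level of 41 tested receptor genes in CPM per kb of merged exons (x axis, log scale); points are group means and lines run from the lowest to the highest of 6 libraries, and a line reaching the left edge holds a library at 0. Members are ordered by their DMSO mean, from Gpr141 at the bottom to S1pr1 at 145 CPM per kb at the top.

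Genes that make the ligands of these receptors or pass on their signals were followed in 12 lists. Of 98 such genes tested, 29 (29.6%) were higher and 3 (3.06%) lower, beside 13.3% and 6.05% of all tested genes, and their median log2 fold change was 0.12. With the block 39 of the 98 were higher and 14 lower, beside 24.7% and 24.3% of all tested genes. The lists were chosen with earlier results of these data known, so these shares are descriptions and not tests of the lists. The share called higher also includes genes, such as Adrbk2 and Gng7, that the filter admitted through the EZH2i group.

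The cyclic AMP list held 9 of 21 tested genes that rose and none that fell. The largest rises were those of Rapgef3, a cyclic AMP-activated exchange factor of Rap, from 1.38 ± 0.388 to 11.4 ± 3.71 CPM (log2 fold change 3.04), of Prkar1b, a regulatory subunit of protein kinase A, from 0.664 ± 0.258 to 3.94 ± 0.669 CPM (2.56), and of Pde8a, a phosphodiesterase that breaks cyclic AMP down, from 13.3 ± 2.77 to 37.6 ± 9.24 CPM (1.49).

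Among G protein genes, 1 of 9 alpha subunits rose, Gnaq, from 10.7 ± 1.76 to 18.2 ± 4.002 CPM. Of 10 beta and gamma subunits 5 rose, the largest being Gng7 (log2 fold change 2.79), Gnb5 (1.05) and Gng12 (0.81). Of 10 RGS genes, whose products switch G proteins off, Rgs9 (1.47) and Rgs12 (0.59) rose and Rgs19 (-0.24) fell. Of 7 receptor kinases and arrestins, which shut receptors down, 2 rose and 1 fell. Adrbk2, a kinase that phosphorylates activated receptors, had 14 counts in DMSO and 417 in EZH2i. Its DMSO mean of 0.113 CPM lay under the filter cutoff of 0.409 CPM, as did that of Gng7 (0.366 CPM). Both genes thus passed the filter by way of their EZH2i libraries. The arrestins parted, with Arrb1 up from 44.4 ± 3.95 to 66.6 ± 6.80 CPM and Arrb2 down from 236 ± 17.8 to 202 ± 5.94 CPM (adjusted p = 0.000353 and 0.0199).

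Enzymes that turn extracellular ATP into adenosine rose: Entpd1 (CD39) from 25.2 ± 1.79 to 30.4 ± 3.30 CPM and Nt5e (CD73) from 104 ± 21.4 to 138 ± 19.0 CPM (adjusted p = 0.0399 and 0.0412, each higher in 6 of 6 same-numbered libraries). Panx1, a channel that releases ATP, fell from 106 ± 4.24 to 86.5 ± 4.41 CPM (adjusted p = 0.00203). Of the 10 tested genes of that list 3 rose and 1 fell, the other rise being that of the ecto-enzyme Enpp1 (log2 fold change 0.37).

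Lists on the lipids held called genes too. Of 8 tested S1P genes 1 rose, the ceramide synthase Cers6 (log2 fold change 0.74), and of 4 lysophosphatidic acid genes 1, the lipid phosphatase Ppap2c (0.59). Of 6 prostaglandin genes the prostacyclin receptor Ptgir rose (0.78). The more abundant receptor gene Tbxa2r of that list was not called (-0.55, adjusted p = 0.0580). Its mean went from 64.7 ± 11.5 to 44.3 ± 11.4 CPM and was lower in 6 of 6 same-numbered libraries. The block called it lower (adjusted p = 3.08e-06). With the block 1 gene of that list was higher and 2 were lower, Tbxa2r and Ptges3. Of 6 genes of other lipid mediators Cysltr2, a leukotriene receptor, and Lta4h, a leukotriene enzyme, rose (1.004 and 0.24). Of the 6 genes that regulate S1pr1 or link receptors to the cytoskeleton, Klf2 (0.59), a factor that drives S1pr1, and Arhgef12 (0.80) rose. The only tested gene of the Gpr183 ligand list, Hsd3b7, was not called (0.41, adjusted p = 0.209).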

How the data were processed

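RNA was sequenced from 12 libraries of mouse splenic CD8+ T cells, 6 per group. The authors deposited raw counts per gene. Per the submitters' processing notes, reads were handled with TopHat2 2.1.1, featureCounts, Trimmomatic 0.38, SAMtools 1.9 and FastQC 0.11.7 on build GRCm38; the sources used here do not give the annotation, strand setting or treatment of multi-mapping reads. The analysis used edgeR 4.0.16 under R 4.3.3: filterByExpr, TMM scaling, and the two-sided quasi-likelihood test with group as the only term and Benjamini-Hochberg adjustment over the 11727 genes tested. SE is the absolute log2 fold change over the square root of F. Alternatives were upper-quartile scaling, no filter, DESeq2 1.42.0, each library left out, both libraries numbered 6 left out, and the replicate number as a block. Intervals and floors cover counting error only.

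Deviations from the group means of same-numbered libraries correlated at 0.26 to 0.88, each over the limit of 0.1. On that ground the block fit and the counts of same-numbered libraries are given. The calls and the permutation tests did not pair libraries. DMSO libraries 1 and 5 correlated best with EZH2i libraries 3 and 2, not with their own number. The pairing comes from the data, since the labels do not say what a number marks. Without number 6 the lowest correlation was 0.00068, that of number 5, and numbers 1 to 4 gave 0.20 to 0.40. DMSO libraries 3 and 5 then correlated best with EZH2i libraries 1 and 2. Passing the limit with number 6 included does not establish a pairing, since that number shifts both group means. No pair of libraries in a group agreed within sampling noise (chi-square per degree of freedom from 4.79 to 212).

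On simulated counts with 11727 genes, the test recovered 32 of 67 genes changed 1.5-fold, 55 of 66 changed 2-fold and 63 of 65 changed 4-fold, with 8 false calls.

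Values are given for the receptor genes called, for a set list of receptors and for those with a group mean of at least 10 CPM; of the pathway lists, up to 3 called genes by size of change are named; a few genes that this rule covers are not reported here, though they count in the totals, and any other gene was chosen after its values were seen. The receptor genes, roles and lists were chosen with earlier results of these data known. Gene spans were matched by symbol to GENCODE M21 for 109 of 110 genes.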

Additional observations from a re-analysis of the deposited data

Results flagged for a closer look

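For the 33 receptor genes named by rule, each group's highest and lowest library was compared with the other 5 by Dixon's test, 66 groups in all. A library lay far from the rest in 28 of them, where chance gives about 1 in 20, and in 26 it was the library numbered 6. The levels are CPM.

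DMSO library 6 stood far above the other DMSO libraries for Gpr55 (64.0), Gpr65 (68.8), Lpar5 (20.1), P2ry14 (70.1) and Ptger3 (1.55), and far below for Adora2a (19.9), Gpr132 (81.7) and S1pr1 (226). EZH2i library 6 stood far above the other EZH2i libraries for Adora2b (1.24), Gpr180 (16.3), Gpr34 (9.57), Gpr55 (83.8), Gpr89 (33.8), Lpar5 (17.5), P2ry14 (145), Ptger2 (6.32), Ptger3 (6.10) and Ptger4 (46.5), and far below for Adora2a (19.1), Gpr108 (38.4), Gpr132 (79.1), Gpr174 (16.9), Gpr19 (6.32), Lpar6 (11.9), P2ry10 (140) and S1pr1 (129). Adora2a, Gpr132, Gpr55, Lpar5, P2ry14, Ptger3 and S1pr1 stood apart on the same side in each group. Of the called genes, Gpr34 and Ptger3 are among those listed, and each was also called without both libraries numbered 6. What sets library 6 apart was not tested.

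Apart from number 6, Gpr146 was high in DMSO library 4 (103 CPM, the others 75.5 to 82.6), and S1pr5 in EZH2i library 5 (0.302 CPM, the others 0 to 0.0776).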

How the results depend on the processing

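With the replicate block, 18 receptor genes were higher and 9 lower, beside 8 and 4 without it. Without both libraries numbered 6 the counts were 15 and 7, and with the block and without number 6, a setting chosen after seeing the data, 18 and 8. Upper-quartile scaling gave 2 lower. Leaving out each library in turn gave 6 to 12 higher and 3 to 6 lower, with the upper end in each case without EZH2i library 6. DESeq2 tested 59 receptor genes and called 9 higher and 4 lower, and without the filter 83 were tested with 8 and 4 called. The 12 calls all held with the block. Gpr141, Gpr137, P2rx3, Gpr171, Ptger3, Lpar2 and Gpr34 were called in all 18 alternatives, Gpr183 in 12, and P2rx4 and Gpr162 in 7 each.

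Only genes that were not called changed sign. Gpr146 was at 0.0369 with upper-quartile scaling, 0.0266 without number 6, 0.0348 with the block and without number 6, and -0.0613 to 0.0460 with each library left out. Gpr18 was at 0.0185, 0.0143 and 0.0240 in these settings and -0.119 to 0.0334 with each library left out, and P2ry10 at 0.0578, 0.0523 and 0.0554 and -0.0885 to 0.129. Gpr55 ranged from -0.0929 to 0.586 with each library left out, the ends being without EZH2i and DMSO library 6. S1pr1 was at -0.0398 with the block and -0.0909 to 0.239 with each library left out. The cause was not tested. These are log2 fold changes.

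Depth limits the 40 receptor genes under the filter, and Gpr141, P2rx3, Ptger3 and Gpr162, which had 28 to 58 counts over all DMSO libraries.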
